A study of Mus musculus with 6 samples.

Results

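Neutrophils enter tissue along gradients of CXC chemokines that carry the ELR motif, and they leave the bone marrow and survive under granulocyte colony-stimulating factor. Of the 32285 genes counted, 8 genes of this axis were followed here across the cell types of the mouse lung: the receptors Cxcr2 and Csf3r, the chemokines Cxcl1, Cxcl2, Cxcl3, Cxcl5 and Cxcl15, and the cytokine Csf3. They were chosen by name as ligands and receptors of neutrophil recruitment, by a rule that sets no threshold on a measured level. Single cells came from the right lungs of 6 male mice that carry human CTLA4 (genotype hCTLA4) and had received bleomycin, 1.25 U/kg in 2 doses given 2 weeks apart, a drug that injures the alveoli and leaves fibrosis. From day 21 after the second dose 3 mice were given IgG1 and 3 mice ipilimumab, an antibody against human CTLA4. Both antibodies were given at 5 mg/kg, 2 times a week for 4.5 weeks. The study used mice 12 weeks old and does not say at which point they had this age. All 6 mice had bleomycin, so no value below sets an injured lung against an uninjured one. Each mouse gave one 10x Genomics 3′ library.

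CXCR2 is the receptor through which mouse neutrophils sense CXCL1, CXCL2, CXCL3 and CXCL5, whereas CXCL15 (lungkine) is a lung epithelial chemokine. These chemokines are known as early targets of NF-kB in macrophages, stromal cells and neutrophils themselves, and neutrophils that release CXCL2 can draw in further neutrophils. CSF3, granulocyte colony-stimulating factor, acts through CSF3R on neutrophils and their precursors.

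The 5 chemokine genes lie together on mouse chromosome 5 (GRCm38, GENCODE vM21), all on the plus strand, within 146579 bases. Cxcl5 (chr5:90759360-90761624) is followed by Cxcl3 (chr5:90786103-90789600), Cxcl15 (chr5:90794534-90803067), Cxcl1 (chr5:90891241-90893115) and Cxcl2 (chr5:90903871-90905938). Cxcr2 is on chromosome 1 (chr1:74153989-74161246), Csf3r on chromosome 4 (chr4:126024550-126044440) and Csf3 on chromosome 11 (chr11:98701263-98703629). The promoters of 6 of the 8 genes were found in the RefSeq table (GRCm38.p6), without Cxcl5 and Csf3. The 250 bases before the RefSeq start of 4 chemokine genes are printed 5′ to 3′ on the plus strand. RefSeq starts differ from the GENCODE starts above, so that the Cxcl2 window ends at 90903898, past 90903871. The letters shared by 3 of these neighbours can be seen beside a window that lacks them. Capitals mark the longest run of letters that the windows of Cxcl1, Cxcl2 and Cxcl3 have in common.
Cxcl1 (chr5:90890995-90891244): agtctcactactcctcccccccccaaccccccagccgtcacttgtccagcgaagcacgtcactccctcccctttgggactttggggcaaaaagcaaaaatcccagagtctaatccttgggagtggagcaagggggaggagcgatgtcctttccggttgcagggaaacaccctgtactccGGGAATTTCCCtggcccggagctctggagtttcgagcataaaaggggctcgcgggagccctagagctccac
Cxcl2 (chr5:90903649-90903898): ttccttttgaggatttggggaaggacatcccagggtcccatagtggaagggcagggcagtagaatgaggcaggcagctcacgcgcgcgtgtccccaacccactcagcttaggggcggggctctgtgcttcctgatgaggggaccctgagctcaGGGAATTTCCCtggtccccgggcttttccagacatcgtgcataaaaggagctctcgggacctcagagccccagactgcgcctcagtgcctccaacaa
Cxcl3 (chr5:90785851-90786100): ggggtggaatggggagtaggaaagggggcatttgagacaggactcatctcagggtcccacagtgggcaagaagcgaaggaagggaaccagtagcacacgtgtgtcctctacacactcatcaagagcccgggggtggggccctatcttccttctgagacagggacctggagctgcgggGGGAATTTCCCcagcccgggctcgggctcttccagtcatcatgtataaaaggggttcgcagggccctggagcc
Cxcl15 (chr5:90794284-90794533): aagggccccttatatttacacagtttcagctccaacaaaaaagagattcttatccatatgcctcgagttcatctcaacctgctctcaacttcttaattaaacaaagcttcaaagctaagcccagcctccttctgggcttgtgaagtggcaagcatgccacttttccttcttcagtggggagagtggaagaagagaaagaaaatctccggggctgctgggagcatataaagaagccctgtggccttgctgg
The shared run, GGGAATTTCCC, has the letters of a classical NF-kB site. It lies from -71 to -61 in Cxcl1, from -97 to -87 in Cxcl2 and from -73 to -63 in Cxcl3. Positions are counted backwards from -1 at the base before the RefSeq start. Searched on both strands, it was in none of the Cxcl15, Cxcr2 and Csf3r windows and in 0.0426% of 32851 promoter windows of this length. It was picked because the 3 windows share it, so that its rarity elsewhere is a description. The PU.1 motif GAGGAA, on either strand, was in the windows of Cxcr2 (from -81 to -76, on the minus strand) and Csf3r (from -86 to -81) and in 23.3% of all windows, and in none of the 4 chemokine windows. A match describes the letters and not a bound site.

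The files held 37666042 to 48612412 UMIs (unique molecular identifiers, counted RNA molecules) per library. After cell calling and quality filters 24258 cells were used, 3268 to 4348 per mouse, with a median of 5926 to 7916 UMIs per cell. Ipilimumab replicate 1 stood apart, with 22056 barcodes of at least 100 UMIs where the other libraries had 4834 to 6230. Ambient RNA, free RNA caught with every cell, was estimated at 0.347% to 1.02% of a cell's UMIs. Cells took the class with most of its 8 markers detected, which named 22803 cells and left 1455 ungated, and no member gene was a marker. Levels are given as CPM, counts per 1e+06 UMIs summed over a mouse's cells of a class. Reads came from the 3′ end, so CPM is not scaled by gene length, and levels are compared between classes or mice and not between genes.

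Neutrophils numbered 1821, of which 7 had exactly 3 markers and 33 led the next class by exactly 2. Of the 1678 cells in the Leiden cluster named neutrophil, 99.2% were in this gate. So were 64.6% of the 209 cells in the cluster named nonclassical monocyte. Of the 8 markers that set this gate, S100a8 was found in 99.1%, Retnlg in 77.0% and Mmp9 in 91.5% of neutrophils. In classical monocytes the shares were 9.89%, 0.802% and 0.535%. Other gate markers were less particular: in classical monocytes Trem1 was found in 66.6%, Hdc in 15.8%, G0s2 in 14.2% and S100a9 in 9.89%. Ly6g, also a gate marker and a defining surface marker, was found in only 5.60% of neutrophils. The gate itself sets these contrasts, so they are no separate check of the class. Neutrophils were 6.72%, 17.0% and 5.75% of the cells in the IgG1 mice and 5.84%, 4.60% and 4.58% in the ipilimumab mice. The second IgG1 mouse was far above the other 5, and the groups overlapped. The mean was 9.81% ± 6.21 (SD, n = 3) for IgG1 and 5.01% ± 0.725 (SD, n = 3) for ipilimumab, a log2 fold change of -0.97 (SE 0.524), with an adjusted p of 0.306 over 21 classes in the edgeR quasi-likelihood test. By an exact permutation test of the 6 shares (two-sided) p was 0.2, where 3 against 3 mice cannot go below 0.1. Without the second IgG1 mouse the log2 fold change was -0.32. Where cells were called by the UMI threshold alone it was -1.35 with an edgeR adjusted p of 0.0463. That threshold, set in each library, was 3570, 3957 and 3393 UMIs with IgG1 and 3931, 4146 and 4853 UMIs with ipilimumab. The median neutrophil had 3678.5, 3702 and 4402.5 UMIs with IgG1 and 3928.5, 4031 and 3574 UMIs with ipilimumab.

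**Figure D1:**
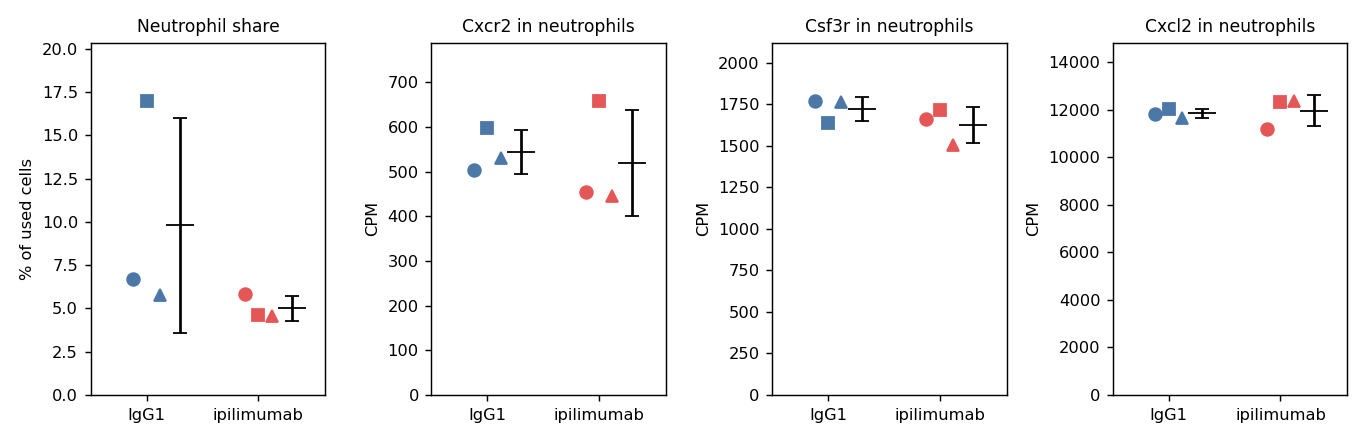
Neutrophil share of used cells (%) and levels of Cxcr2, Csf3r and Cxcl2 in gated neutrophils (CPM) for each mouse, with circle, square and triangle for replicates 1, 2 and 3 and the mean ± SD of each group in black. The second IgG1 mouse has 17.0% neutrophils while its Cxcl2 level of 12056 CPM lies inside the range of the other mice, 11209 to 12362 CPM.

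Cxcr2, the chemokine receptor, was a neutrophil gene in all 6 mice. Neutrophils held 504, 599 and 531 CPM in the IgG1 mice and 455, 657 and 446 CPM in the ipilimumab mice. The ipilimumab mice gave both the highest and the lowest level, and the groups overlapped. A Cxcr2 UMI was found in 1412 of 1821 neutrophils (77.5%, 95% exact binomial interval 75.6% to 79.4%, counting error only) and in 0.362% of B cells, which should lack it, at median depths of 3827 and 5605.5 UMIs. Neutrophils held 83.2% of all Cxcr2 UMIs, with 71.4% to 90.2% in single mice. The next level was that of alveolar macrophages, 6.34 ± 1.52 CPM (SD, n = 6), below neutrophils in 6 of 6 mice and above the 0.585 CPM pooled over B cells. The exact sign-flip test over the 6 mice gave p = 0.03125, the smallest it can give, and 0.25 after adjustment over 80 tests of neighbouring classes. No test in this family had a smaller adjusted p. Nonclassical monocytes were next in order, at a mean of 5.76 CPM. They had 22.4 CPM in IgG1 replicate 1, from 8 UMIs in 3 cells, and 0 to 4.68 CPM in the other mice. Alveolar macrophages were higher in 5 of 6 mice, and the 2 classes did not differ beyond their spread (exact sign-flip p = 0.906).

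Csf3r, the receptor for granulocyte colony-stimulating factor, was found in nearly every neutrophil and at a steadier level. Its level in neutrophils was 1767, 1638 and 1762 CPM with IgG1 and 1659, 1716 and 1503 CPM with ipilimumab. A UMI of it was present in 97.5% of neutrophils and 0.712% of B cells, and neutrophils held 79.6% of its UMIs. The monocytes came next, with 112 ± 10.4 CPM in classical and 103 ± 25.9 CPM in nonclassical monocytes (SD, n = 6), 2 neighbours that did not differ beyond their spread (exact sign-flip p = 0.531). Interstitial macrophages had 27.2 CPM and alveolar macrophages 11.9 CPM, against 1.15 CPM pooled over B cells. Neutrophils with neither receptor were 1.03%, 0.837% and 0% of the IgG1 and 5.12%, 0.543% and 3.76% of the ipilimumab neutrophils.

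The level of neither receptor per neutrophil changed detectably with ipilimumab. In the edgeR fit of neutrophil sums, Cxcr2 had a log2 fold change of -0.12 (SE 0.177, adjusted p = 0.926) and Csf3r one of -0.13 (SE 0.119, adjusted p = 0.877). No gene of 5304 tested in neutrophils passed an adjusted p of 0.05 with an absolute log2 fold change over 0.3 (0%), while 361 had an unadjusted p below 0.05 and DESeq2 called 7, none of them a member. The 2 groups of mice did not overlap in CPM for 11.8% of these genes, and for 0 of the 6 members tested. With each neutrophil thinned to 1500 UMIs, which left out 4, 5 and 1 shallower cells in the IgG1 and 45, 2 and 6 in the ipilimumab mice, Cxcr2 was found in 50.9% ± 3.71 of IgG1 and 50.2% ± 11.9 of ipilimumab neutrophils (SD, n = 3 each, exact permutation p = 1). Unthinned, the shares were 79.0% ± 2.92 and 74.5% ± 10.4. Thinned Csf3r was found in 89.6% ± 1.64 and 86.7% ± 2.59 (exact permutation p = 0.2).

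Receptor RNA in the lung as a whole was highest in the mouse with most neutrophils. In the sum of all cells Csf3r was at 64.6, 124 and 59.0 CPM with IgG1 and 59.7, 46.3 and 35.7 CPM with ipilimumab. The highest value belonged to the second IgG1 mouse, which also had the highest neutrophil share. The edgeR log2 fold change was -0.87 (SE 0.324, unadjusted p = 0.0317, adjusted p = 0.869). Cxcr2 in the same sums had one of -0.99 (SE 0.412, adjusted p = 0.869). In such a sum fewer cells of a type and less RNA per cell cannot be told apart. In the sum of cells outside the neutrophil gate the values were -0.14 for Csf3r and -0.23 for Cxcr2. No gene of 17454 was called in the sum of all cells (0%), 913 had an unadjusted p below 0.05, and DESeq2 called 38.

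**Figure D2:**
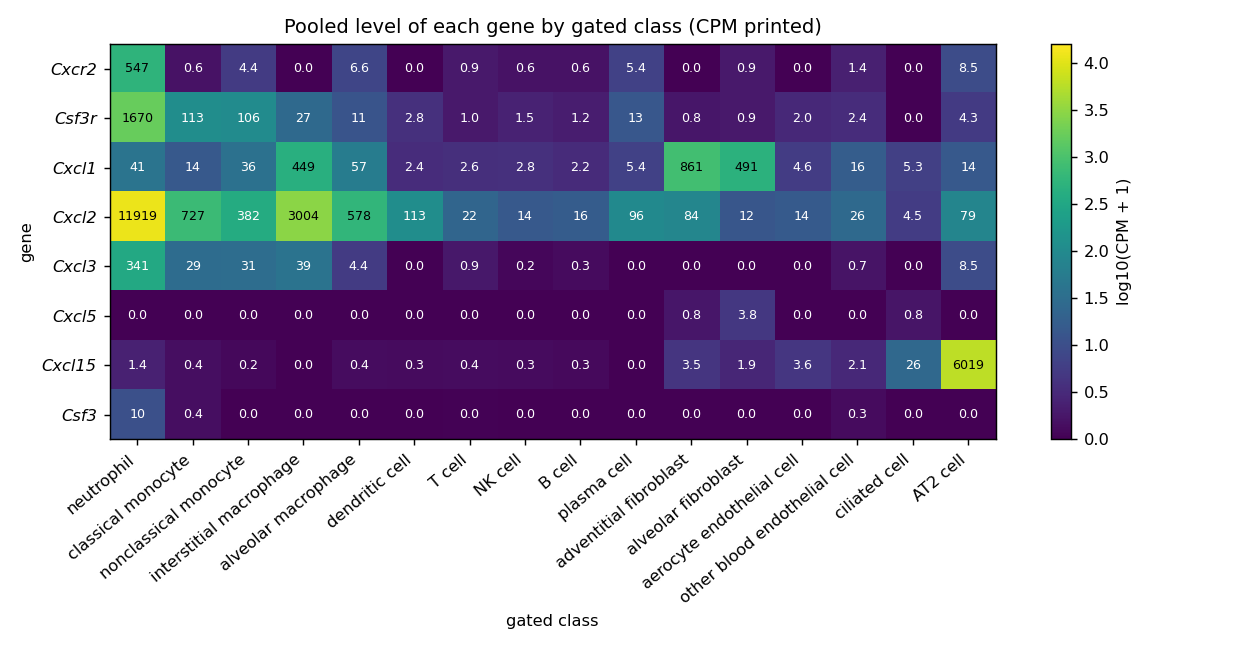
Pooled level of the 8 genes (rows) in 16 gated classes (columns), with the CPM printed in each cell and colour on a log10(CPM + 1) scale. Cxcr2, Csf3r, Cxcl2 and Cxcl3 peak in neutrophils, Cxcl1 in the 2 fibroblast classes and interstitial macrophages, and Cxcl15 in AT2 cells at 6019 CPM.

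Cxcl2, an ELR chemokine bound by CXCR2, had its highest level in neutrophils, the cells that also held RNA of its receptor. All levels are of cells taken after enzymatic digestion of the lung, and levels before digestion were not measured here. Neutrophils had 11842, 12056 and 11673 CPM in the IgG1 mice and 11209, 12318 and 12362 CPM in the ipilimumab mice. The 6 values lay close together, with an SD of 3.65% of their mean against 15.5% for Cxcr2 and 22.5% for Cxcl3. Cxcl2 was found in 1791 of 1821 neutrophils, at a median of 40 UMIs per cell, and in 8.66% of B cells. The treatment contrast was -0.04 on the log2 scale (SE 0.115, edgeR adjusted p = 0.963), with a sign that changed under 4 of 18 alternatives.

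Other myeloid cells held Cxcl2 at lower levels. Interstitial macrophages, tissue macrophages outside the airspace, had 2995 ± 798 CPM (SD, n = 6), below neutrophils and above classical monocytes (713 ± 84.9 CPM) in 6 of 6 mice for each pair. Classical monocytes and alveolar macrophages (584 ± 148 CPM), the resident phagocytes of the airspace, did not differ beyond their spread (exact sign-flip p = 0.188). Cxcl2 was spread unevenly over these cells: 50% of the Cxcl2 UMIs of the 550 nonclassical monocytes lay in 7 cells, and those of the 2930 alveolar macrophages in 244. Of the 90 interstitial macrophages, 6 to 20 per mouse, 15 held 50% of the Cxcl2 UMIs of their class. B cells had 12.4 to 24.1 CPM, which was 0.719% to 1.09% of the Cxcl2 level of ambient RNA in the same library (1467 to 3274 CPM).

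The share of Cxcl2 RNA that came from neutrophils varied by mouse more than its level in them. Neutrophils held 55.9%, 70.3% and 54.7% of all Cxcl2 UMIs with IgG1 and 63.4%, 38.3% and 36.1% with ipilimumab. The 2 lowest shares were in ipilimumab replicates 2 and 3, and the groups overlapped (exact permutation p = 0.3). Alveolar macrophages held 22.1%, 17.1% and 29.9%, and 14.0%, 38.0% and 26.7%. Ungated cells held 6.29% to 24.5%. Of the 1455 ungated cells, 69 had neutrophil and nonclassical monocyte as their 2 leading classes and held 4562 of the 19418 ungated Cxcl2 UMIs. A further 201, led by alveolar macrophage and classical monocyte, held 4551.

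**Figure D3:**
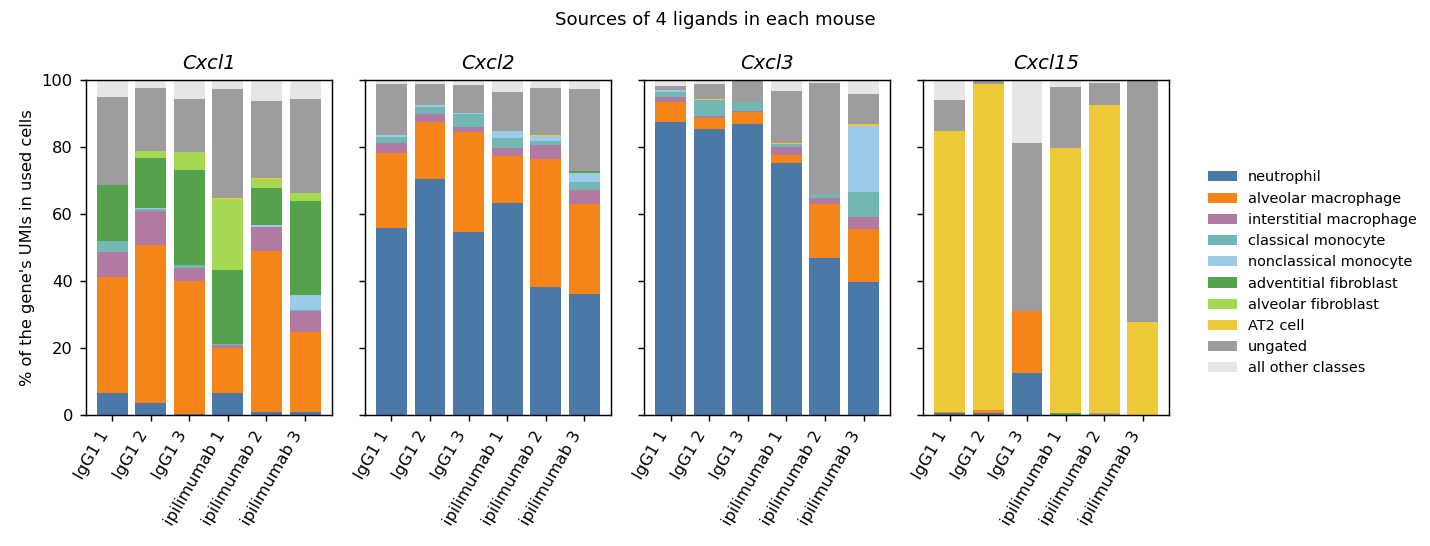
Share of the UMIs of Cxcl1, Cxcl2, Cxcl3 and Cxcl15 (% of the gene's UMIs in used cells) held by each class in each of the 6 mice. Neutrophils hold 85.4% to 87.5% of Cxcl3 in the IgG1 mice and 39.6% to 75.3% in the ipilimumab mice, alveolar macrophages and fibroblasts hold most gated Cxcl1, and AT2 or ungated cells hold nearly all Cxcl15 except in the third IgG1 mouse.

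Over 12 gated classes the members gave 28 treatment tests with edgeR, of which 0 were called and 4 had an unadjusted p below 0.05. In these and 3 further classes the share of all genes called was 0%, except 0.0151% in classical monocytes and 0.326% in aerocyte endothelial cells, where no member passed the filter on low counts. The 4 were Csf3 in neutrophils, Cxcl3 in alveolar macrophages, and Cxcl2 in adventitial fibroblasts (log2 fold change 1.84, SE 0.814, adjusted p = 0.985) and in dendritic cells.

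Dendritic cells, which prime T cells, showed the smallest unadjusted p of any member in any class for Cxcl2. Their levels were 13.1, 24.7 and 23.6 CPM with IgG1 and 67.3, 159 and 195 CPM with ipilimumab. All 3 ipilimumab mice lay above all 3 IgG1 mice, and the groups likewise did not overlap for 10.1% of the 5131 genes tested there. The edgeR log2 fold change was 2.76 (SE 0.491), with an unadjusted p of 0.000351 and an adjusted p of 0.901. No gene was called in dendritic cells by edgeR (0%, with 229 at an unadjusted p below 0.05), while DESeq2 gave Cxcl2 an adjusted p of 0.00361. The sums rest on 8 to 37 cells per mouse. The highest single dendritic cell held 25, 65 and 86 of the 31, 101 and 177 Cxcl2 UMIs in the ipilimumab mice. B cells had 14.5, 24.1 and 12.4 CPM with IgG1 and 16.1, 14.7 and 14.6 CPM with ipilimumab. The dendritic Cxcl2 levels with IgG1 thus lay in or near the range of B cells. With Leiden clusters in place of gates the log2 fold change was -0.0096. Cxcl2 in alveolar macrophages had a log2 fold change of -0.32 (SE 0.227, edgeR adjusted p = 0.895).

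Cxcl1, also a CXCR2 ligand, had its highest level in fibroblasts and not in neutrophils. Adventitial fibroblasts, the matrix-producing cells around vessels and airways, had 618, 770 and 624 CPM with IgG1 and 722, 665 and 1335 CPM with ipilimumab. The third ipilimumab mouse was far above the others, and the groups overlapped. The edgeR log2 fold change was 0.46 (SE 0.258, adjusted p = 0.985) and 0.05 without that mouse. Alveolar fibroblasts had 484 ± 95.9 CPM (SD, n = 5 mice with at least 5 such cells), below adventitial fibroblasts in 5 of 5 mice, and did not differ beyond the spread from interstitial macrophages (397 ± 205 CPM, exact sign-flip p = 0.625). A Cxcl1 UMI was found in 58.0% of adventitial fibroblasts, 54.7% of alveolar fibroblasts and 42.2% of interstitial macrophages. In the same order, 50% of the Cxcl1 UMIs of a class lay in 30 of 324, 6 of 86 and 5 of 90 cells.

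Alveolar macrophages, 2930 cells against 324 adventitial fibroblasts, held more Cxcl1 RNA pooled over the mice, at a lower level per UMI. Their level was 40.2, 54.6 and 66.5 CPM with IgG1 and 30.2, 69.5 and 67.1 CPM with ipilimumab. Pooled over mice they held 33.7% of all Cxcl1 UMIs, against 20.7% in adventitial fibroblasts, 24.6% in ungated cells and 2.69% in neutrophils. By mouse, alveolar macrophages held 34.4%, 47.2% and 39.5% with IgG1 and 13.5%, 48.2% and 23.7% with ipilimumab. Adventitial fibroblasts held 16.6%, 14.9% and 28.1% with IgG1 and 22.1%, 10.9% and 28.2% with ipilimumab. That was more than the gated alveolar macrophages held in ipilimumab replicates 1 and 3, where ungated cells held 32.3% and 28.0%. Over all mice, 28.2% of the ungated Cxcl1 UMIs lay in cells led by alveolar macrophage and classical monocyte markers. Cells led by alveolar and interstitial macrophage markers held 16.1%, and those led by fibroblast and pericyte or smooth muscle markers 5.56%. Cxcl1 was found in 702 of 2930 alveolar macrophages, and 94 of them held 50% of its UMIs. Those 702 cells had a median of 19 Cxcl2 UMIs, and the other 2228 a median of 1, at median depths of 23509.5 and 20331.5 UMIs. In neutrophils Cxcl1 was found in 62 cells, and 8 of these held 50% of its UMIs there. In the sum of all cells Cxcl1 was at 28.3, 43.3 and 32.2 CPM with IgG1 and 39.3, 50.9 and 80.0 CPM with ipilimumab, which overlapped (log2 fold change 0.67, SE 0.304, edgeR adjusted p = 0.869).

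**Figure D4:**
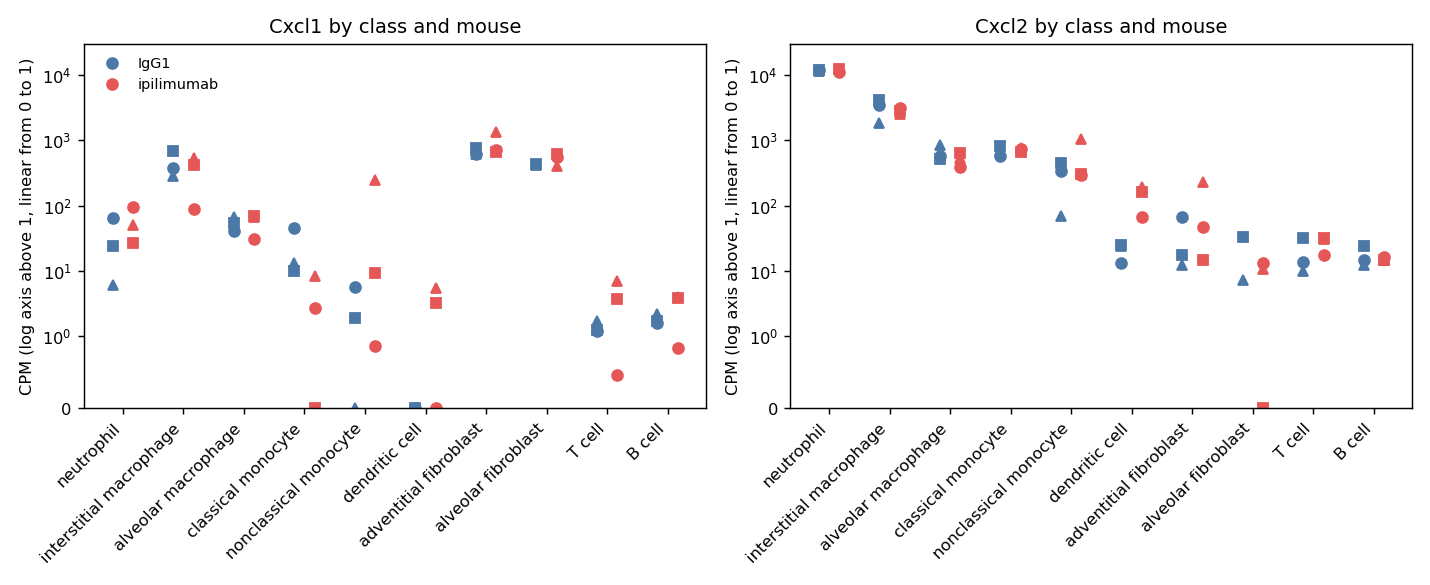
Cxcl1 (left) and Cxcl2 (right) in CPM for each mouse with at least 5 cells of a class, on an axis that is logarithmic above 1 and linear from 0 to 1, with circle, square and triangle for replicates 1, 2 and 3. Cxcl2 in neutrophils spans 11209 to 12362 CPM over the 6 mice, and Cxcl1 in adventitial fibroblasts 618 to 1335 CPM.

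Cxcl3, a close relative of Cxcl1 and Cxcl2, was, like Cxcl2, highest in neutrophils, at lower counts. Neutrophils had 247, 406 and 296 CPM with IgG1 and 257, 333 and 418 CPM with ipilimumab, and 23.7% of them held a UMI. The groups overlapped almost fully (log2 fold change 0.0070, SE 0.218, edgeR adjusted p = 0.996). Neutrophils held 87.5%, 85.4% and 86.8% of all Cxcl3 UMIs in the IgG1 mice and 75.3%, 46.9% and 39.6% in the ipilimumab mice. These shares did not overlap between the groups, as was so for 23.7% of the 5304 genes tested in neutrophils, and the exact permutation test gave its smallest possible p of 0.1. Single cells held part of the rest: 1 ungated cell held 137 of the 539 Cxcl3 UMIs of ipilimumab replicate 2, and 1 nonclassical monocyte 145 of the 742 of replicate 3. Alveolar macrophages had 2.02, 2.71 and 1.57 CPM with IgG1 and 1.30, 5.84 and 9.92 CPM with ipilimumab (log2 fold change 1.46, SE 0.589, edgeR unadjusted p = 0.0376, adjusted p = 0.895). No gene of 12021 was called in alveolar macrophages (0%), with 539 at an unadjusted p below 0.05 and 1 called by DESeq2, which was no member.

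Cxcl15, the epithelial chemokine, lay mainly in type II alveolar epithelial (AT2) cells, which make surfactant. AT2-gated cells had 6019 CPM pooled over mice, with a UMI in 123 of 127 cells, and held 71.2% of all Cxcl15 UMIs, while ungated cells held 26.3%. Of the ungated Cxcl15 UMIs, 47.6% lay in 25 cells led by AT2 and endothelial markers. A further 24.5% lay in 2 cells led by AT2 and T cell markers, and 12.9% in 8 cells led by AT1 and AT2 markers. In ipilimumab replicate 3 ungated cells held 71.9% of the Cxcl15 UMIs and gated AT2 cells 27.5%. The highest ungated cell of that mouse alone held 383 of its 1386 Cxcl15 UMIs. The AT2-gated cells were few and unevenly recovered, 4, 5 and 0 in the IgG1 mice and 109, 6 and 3 in the ipilimumab mice. They did not reach the 5 cells in at least 2 mice of each group required for a fit. In ipilimumab replicate 1, where 105 of the 109 held Cxcl15, their median was 1068 UMIs. It was 9430 to 27559 UMIs in the other mice with such cells. The AT2 cells of the first IgG1 mouse had a Cxcl15 level of 4780 CPM and those of the second 7763.5 CPM. Those of the ipilimumab mice had 5653, 6199 and 6632 CPM, between these values. In the sum of all cells Cxcl15 was at 8.28, 14.6 and 0.482 CPM with IgG1 and 72.7, 26.3 and 32.7 CPM with ipilimumab. The groups did not overlap, as for 9.96% of the 17454 genes tested in these sums. The edgeR log2 fold change was 2.39 (SE 0.927) with an unadjusted p of 0.0372 and an adjusted p of 0.869. The number of gated AT2 cells, which leaves out the ungated cells led by AT2 markers, moved with this sum in part. Its share in the difference was not tested. Cxcl5, an epithelial CXCR2 ligand, was rare among all used cells, with 57 UMIs in 11 cells. Of these UMIs 25 lay in 2 of the 3 airway secretory cells and 24 in 4 ungated cells. Those 2 airway secretory cells had 365 and 325 CPM, and with 3 such cells recovered this class was hardly sampled. Cxcl5 was in no neutrophil (0 of 1821 cells) and passed the filter of no test.

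Csf3, the ligand of CSF3R, was rare, with 92 UMIs in 40 cells, of which 69 (75.0%) lay in 26 neutrophils. By mouse, neutrophils held 90.9%, 88.9% and 90.9% of 11, 45 and 11 Csf3 UMIs with IgG1, and 0%, 0% and 50% of 2, 5 and 18 with ipilimumab. Csf3 was found in 4 of 292, 14 of 717 and 7 of 188 neutrophils in the IgG1 mice, and in 0 of 254, 0 of 184 and 1 of 186 in the ipilimumab mice. As shares these are 1.37%, 1.95% and 3.72%, and 0%, 0% and 0.538%, where a count of 0 (floor of 3 counts) allows a share of cells with a UMI of up to 1.18% and 1.63%, which limits detection and not expression. The groups did not overlap in these shares, as was so for 9.29% of the 5304 genes tested in neutrophils, although the exact binomial intervals of single mice overlapped for every pair but IgG1 replicate 3 and ipilimumab replicate 1. The mean was 2.35% ± 1.23 for IgG1 and 0.179% ± 0.310 for ipilimumab (SD, n = 3 each, exact permutation p = 0.1, the smallest possible). After thinning to 1500 UMIs it was 1.03% ± 0.634 and 0.185% ± 0.321 (exact permutation p = 0.2). In CPM the levels were 9.01, 14.6 and 11.9 with IgG1 and 0, 0 and 12.8 with ipilimumab, and the last value came from 1 cell with 9 UMIs. By this measure the groups overlapped (edgeR log2 fold change -1.75, SE 0.799, unadjusted p = 0.0478, adjusted p = 0.726). The comparison of shares of cells was added with these values known. The share of neutrophils with a Cxcl1 UMI also did not overlap between the groups, but was higher with ipilimumab. It was 2.74%, 2.93% and 2.66% with IgG1 and 3.54%, 4.35% and 5.91% with ipilimumab (exact permutation p = 0.1, the smallest possible). After thinning these Cxcl1 shares overlapped (exact permutation p = 0.2). The edgeR log2 fold change of Cxcl1 in neutrophils was 0.83 (SE 0.551, adjusted p = 0.809). Ungated cells held 1, 5 and 9 Csf3 UMIs in the ipilimumab mice and 0 in each IgG1 mouse, and 5 of these lay in the ungated cells led by neutrophil and nonclassical monocyte markers.

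**Figure D5:**
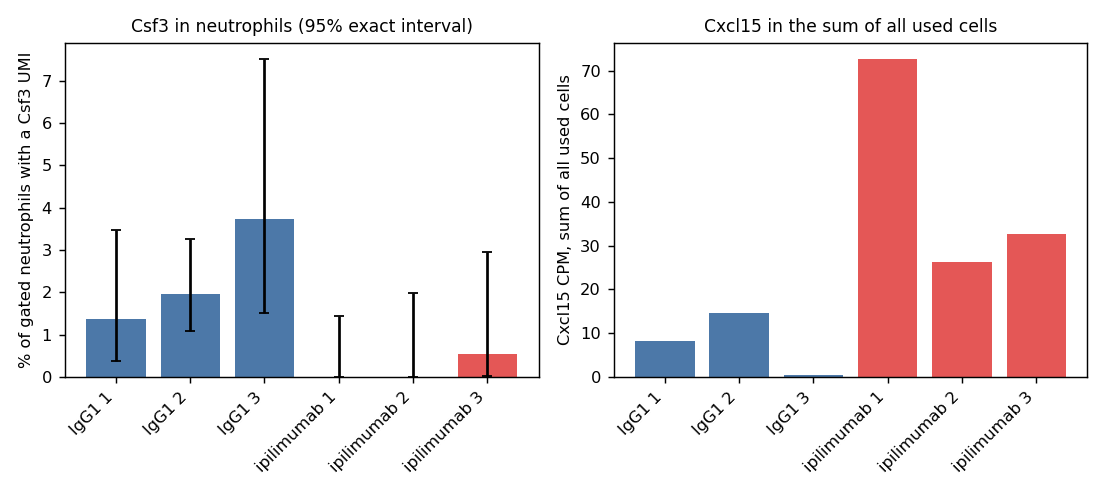
Left, the share of gated neutrophils with a Csf3 UMI in each mouse (%), with 95% exact binomial intervals that cover counting error only. Right, the Cxcl15 level in the sum of all used cells of each mouse (CPM), from 0.482 in the third IgG1 mouse to 72.7 in the first ipilimumab mouse.

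The ligands outside the neutrophil gate showed no detectable relation to the neutrophil share over the 6 mice. The cells outside the gate include the ungated cells. Of these, the 69 led by neutrophil and nonclassical monocyte markers held 54.7% of the ungated Cxcr2 UMIs. Pearson's r between neutrophil share and Cxcl1 in the sum of cells outside the gate was -0.173 (exact permutation p = 0.668) and Spearman's rho -0.60 (exact permutation p = 0.242). For Cxcl2 they were 0.259 (exact p = 0.789) and -0.486 (exact p = 0.356). Over the 6 ligands the adjusted permutation p-values were all at least 0.677. Without the 2 mice farthest from the median share, r over the other 4 was -0.965 for Cxcl1 (from -0.173), -0.513 for Cxcl2 (from 0.259) and -0.897 for Cxcl3 (from -0.104). It was 0.777 for Cxcl5 (from -0.301), -0.152 for Cxcl15 (from -0.230) and -0.901 for Csf3 (from 0.068). The values thus rest on which mice are included, and the signs for Cxcl2, Cxcl5 and Csf3 turned. Those for Cxcl5 also rest on few UMIs, 18, 1 and 0 with IgG1 and 1, 0 and 37 with ipilimumab. Csf3 had 1, 5 and 1 UMIs with IgG1 and 2, 5 and 9 with ipilimumab.

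Genes of the same axis were also counted in lists of other CXC chemokines, IL-1, TNF and IL-17 inducers with their receptors, NF-kB feedback genes, other attractant receptors, adhesion genes and other colony-stimulating factors. In neutrophils 42 of the 66 listed genes in the files were tested and 0 were called, with a median log2 fold change of -0.04 against 0.00031 over all 5304 genes. Of the lists, 0 of 9 inducer and receptor genes tested were called, 0 of 11 NF-kB feedback genes, 0 of 7 attractant receptors, 0 of 11 adhesion genes and 0 of 5 colony-stimulating factors or receptors, and no other CXC chemokine passed the filter on low counts. Chosen after their values were seen, the 5 with an unadjusted p below 0.05 were Il1r2, the IL-1 decoy receptor (log2 fold change -0.32), Il1rap, the IL-1 co-receptor (-0.41), Il17ra (-0.47), the NF-kB inhibitor Tnfaip3 (-0.55) and the IL-1 antagonist Il1rn (0.71), with adjusted p-values of 0.631 to 0.719. Over 15 classes 0 of 468 such tests were called.

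Across the mean levels of 14 classes with enough cells, the genes closest to each member were sought among 5694 genes of at least 100 CPM in a class, by Pearson's r of log2(CPM + 10). Cxcr2 was closest to Cstdc4 (r = 0.991), and Csf3r to Gm16556 (r = 0.997) and Cxcl3 (r = 0.976). Cxcl2 was closest to Clec4d (r = 0.970), a C-type lectin of myeloid cells, and next to Slc7a11 (r = 0.965) and C5ar1, the receptor for the complement fragment C5a (r = 0.964). Cxcl1 was closest to Col14a1 (r = 0.912), a fibroblast collagen. AT2 cells were not among the 14 classes, so no such value is given for Cxcl15. The points share libraries and depth, and r is a description of these classes only.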

How the data were processed

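The members and gene lists were chosen with earlier results of these data known. Values are UMI counts per gene and barcode that the authors deposited for every barcode, filled and empty, aligned to mm10 with Cell Ranger (7.0.0 per the labels, other versions in the file header and the study's methods). The authors' later correction for ambient RNA, their filters and their cell names were not used here. Cells were barcodes above a UMI threshold (the 99th percentile of the 5000 largest barcodes, divided by 10), or barcodes of at least 500 UMIs whose profile departed from ambient RNA (barcodes ranked 45000 to 90000; false discovery rate 0.01, simulated 10000 times). A cell needed 200 genes and at most 10% of UMIs from mitochondria, and the highest doublet scores were dropped, at 0.8% per 1000 cells. Libraries shared 0 to 8 barcodes per pair.

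A cell took the class with most of 8 markers detected, with at least 3 detected and at least 2 more than the next class. Fibroblasts and endothelial cells were split by finer markers. UMIs were summed per class and mouse, and ipilimumab was compared with IgG1 by the edgeR 4.0.16 quasi-likelihood test (TMM, filterByExpr, Benjamini-Hochberg over all genes tested) in mice with at least 5 cells of the class. Genes were called at an adjusted p below 0.05 where the log2 fold change exceeded 0.3 in size. The mouse was the unit of every test. Single values were compared by exact two-sided permutation or sign-flip tests (SciPy 1.17.1). The fits were checked on simulated data. Cell calling, gates, normalization, filter, tool (DESeq2 1.42.0), ambient correction, replicate block and each mouse left out were varied. Named were all 8 members, listed genes that were called, and up to 3 genes most like each member. Listed genes with an unadjusted p below 0.05 in neutrophils were added after their values were seen. The authors' flow cytometry and protein data were not analysed here.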

Additional observations from a re-analysis of the deposited data

How the results depend on the processing

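Of the treatment contrasts named in the report, Cxcr2 and Csf3r in neutrophils kept their negative sign and stayed above an adjusted p of 0.05 under all 18 alternatives, with Cxcr2 from -0.36 to -0.012 and Csf3r from -0.21 to -0.039 on the log2 scale. The neutrophil share ranged from -1.24 to -0.32 with 1 mouse left out, and only with the UMI threshold alone (-1.35) did it pass the test. Genes called in neutrophils, 0 in the edgeR test with the filter, numbered 92 without a filter on low counts, 7 by DESeq2, 1 with a gate lead of 1 marker and 0 to 15 with 1 mouse left out. The 15 came with ipilimumab replicate 2 left out, against 2 for replicate 1 and 1 for replicate 3. Members called over all gated classes, 0 in the edgeR test with the filter, were 1 by DESeq2 (Cxcl2 in dendritic cells, adjusted p = 0.00361) and 7 without a filter. Those 7 included Cxcl1 and Cxcl3 in nonclassical monocytes, where 1 cell of ipilimumab replicate 3 held nearly all UMIs. Cxcl2 was also called in this class, where the same cell held 366 Cxcl2 UMIs and 7 of 550 cells held 50% of them. Cxcl15 was called in ciliated cells, where its 34 UMIs all lay in 1 cell of ipilimumab replicate 1. The other calls were Cxcl1 in classical monocytes and Cxcl2 in dendritic cells and adventitial fibroblasts. Cxcl2 in dendritic cells was -0.0096 with clusters in place of gates, in a larger set of 459 cells against 130 gated ones. The edgeR adjusted p of that gene in that class ran from 5.62e-09 to 0.9998 over its alternatives. Cxcl2 in neutrophils turned to 0.020 with total UMIs alone, to 0.019 with clusters, and ran from -0.095 to 0.014 with 1 mouse left out. Cxcl3 in neutrophils turned to -0.061 without a filter, -0.52 with the UMI threshold alone, -0.032 with barcodes of 250 UMIs and 100 genes and -0.072 with a gate lead of 1 marker, and ran from -0.17 to 0.28 with 1 mouse left out. The cause of these changes was not tested.

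Apart from the fits with a replicate block, no fit paired the mice by replicate number. Same-numbered mice correlated at 0.124, 0.305 and -0.157 in their deviations from the group means. Differently numbered mice correlated at -0.426 to 0.363. With 3 mice per group these values cannot decide whether the mice were handled in pairs. With the replicate number as a block the neutrophil share was -0.80 and 1 gene was called in neutrophils.

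With 3 mice per group the exact permutation tests reach no p below 0.1. The UMIs summed over a mouse's neutrophils limit rare members: 3 Csf3 UMIs amount to 2.70 to 4.27 CPM in 5 mice and 1.09 CPM in the second IgG1 mouse, which had most neutrophils. The AT2 and airway classes had too few cells for a fit. Neutrophil counts and sums come from 1 digestion of the right lung per mouse, and the second IgG1 mouse decides much of the difference in share.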

Other observations

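Among all cells the highest Cxcl3 count lay in a nonclassical monocyte of ipilimumab replicate 3, which held 145 UMIs of Cxcl3, 154 of Cxcl1 and 366 of Cxcl2 among 44240 in all. An ungated cell of ipilimumab replicate 2 held 137 of Cxcl3 and 106 of Cxcl2 but 2 of Cxcl1 among 71822. Neither had a Cxcr2 UMI. The neutrophil with most Cxcl3, in ipilimumab replicate 3, held 35 UMIs of it, 144 of Cxcl2 and 0 of Cxcl1 among 4020, beside 9 of Cxcr2 and 7 of Csf3r.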
